A study of Mus musculus with 16 samples.

Results

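Grin1, 1810037I17Rik, Rab15, Lrrc34, Syap1 and Esrp1 are transcripts chosen for large falls in mouse embryonic stem cells (ESCs) after transfection of a RAM siRNA, within limits on level and significance given below. They were picked because they fell, so the fall of each in the comparison that picked it is a description and carries no p. Grin1, 1810037I17Rik, Rab15 and Lrrc34 were picked on the cytoplasmic lysate (input), and Syap1, Esrp1 and again Lrrc34 on polysomes. They are 6 of 46983 genes in the count table. All 6 passed the filter on low counts (at least 1 CPM, a count relative to library size, in at least 10 of 16 libraries), which left 12805 genes.

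RNA was sequenced from 46C ESCs, a line of strain 129Ola with GFP at the Sox1 locus, grown with LIF and harvested 48 hr after transfection of RAM siRNA or of a control siRNA with no target. Cycloheximide was added before lysis in both groups. Part of each extract was kept as input, and fractions 17 to 22 of a sucrose gradient were pooled as polysomes, with 4 libraries in each of the 4 groups. The study describes 4 independent transfections and its supplement names 1 siRNA (siRNA 2) for them, so in this 1 line the loss of RAM and other effects of that siRNA cannot be told apart. Libraries of input and polysomes with 1 replicate number come from the same culture.

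RAM is a small protein that activates RNMT, the enzyme that methylates the guanosine cap of mRNA. The methylated cap protects mRNA and is bound by the factors that bring ribosomes to it. A transcript with many ribosomes sediments deep in the gradient. The ratio of its level in polysomes to its level in input (polysome loading) describes how much of it does so relative to other transcripts. Levels are relative to their library, so a shift shared by all transcripts does not show in them. The paper reports a lower ratio of polysomes to monosomes after RAM siRNA, which these ratios cannot show. The transcripts described here encode proteins of unlike function. Grin1 encodes the obligatory subunit of NMDA-type glutamate receptors, Rab15 a small GTPase of endosomal recycling, and Esrp1 an RNA-binding protein that directs epithelial splicing. Syap1 encodes a protein that promotes phosphorylation of Akt by mTORC2, and Lrrc34 a leucine-rich repeat protein of the nucleolus. 1810037I17Rik is known here by its clone name only.

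Libraries held 16647523 to 20147833 counts. Ramac, which encodes RAM, had 201, 202, 197 and 206 counts in control input and 57, 46, 58 and 56 in RAM siRNA input, and it fell furthest of the 12805 genes (log2 fold change -1.84, standard error, SE, 0.11, adjusted p = 7.24e-06 in edgeR). Its log2 fold change in polysomes was -2.52 (SE 0.55, adjusted p = 0.128, or 2.36e-05 with the replicate number as a block). Rnmt rose by 0.37 in input (SE 0.11, adjusted p = 0.0389). The 8 ESC markers examined summed to 4760 to 5160 CPM in control input and 4040 to 4560 CPM in RAM siRNA input. All 8 passed the filter, and Dppa5a (-0.36), Nanog (-0.29) and Esrrb (-0.25) fell past an adjusted p of 0.05 (7 of 8 did with the block). Of the other markers, 8 neural genes summed to 77.1 to 90.9 CPM and 82.8 to 97.1 CPM, 8 fibroblast and feeder genes to 17.9 to 20.6 CPM and 19.7 to 29.2 CPM, and 8 endoderm and mesoderm genes to 8.12 to 10.8 CPM and 8.77 to 10.9 CPM. In those input libraries 3, 5 and 5 of the 8 genes were under 1 CPM throughout. Of the 10 of these genes that passed the filter, Gata6 alone changed in input without the block (0.61, adjusted p = 0.0196). With the block, 1 neural marker was lower and 1 higher, 1 fibroblast and feeder marker was higher, and 1 endoderm and mesoderm marker was lower and 1 higher. Whether shifts in cell state took part in the falls below was not tested, and fewer expressing cells and less RNA per cell cannot be told apart in bulk libraries.

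The sequences of the transcripts were examined for ACTATCA, a run of 7 bases found earlier to be common in the 3′ UTRs of genes that fell in this same input comparison. Its presence in transcripts that fell is therefore no independent evidence. The 8-base form TACTATCA lies once in 1810037I17Rik and in 2 copies in Syap1, in both cases in the 3′ UTR. It also lies in the coding sequence of Ramac, the targeted transcript. The 7-base form lies in the 3′ UTR of Esrp1 and in the coding sequence of Rab15. Grin1 and Lrrc34 hold none of these, nor the shorter ACTATC, on the transcript examined. The windows below, 30 bases each on the transcribed strand of GRCm38 with the match in capitals, show the bases around each match. Every match starts at the same place in its window, so the 7-base and 8-base windows are not aligned on ACTATCA. Bases shared with Ramac beyond the match were not counted.
Ramac, coding, chr7:81768485-81768514, plus strand: gaccagagcccTACTATCAacaacagtaca
1810037I17Rik, 3′ UTR, chr3:122925605-122925634, plus strand: cctcactaaagTACTATCAtatgtttaaaa
Syap1, 3′ UTR, chrX:162857515-162857544, minus strand: gttaaagtactTACTATCAgaaagtaatat
Syap1, 3′ UTR, chrX:162857494-162857523, minus strand: aagtaatatctTACTATCAaaatgaccaaa
Esrp1, 3′ UTR, chr4:11333427-11333456, minus strand: gtgatcctgaaACTATCAgacaagagaact
Rab15, coding, chr12:76803582-76803611, minus strand: agaggtaccagACTATCAcaaagcagtact

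The Syap1 copies start 351 and 372 bases after the stop codon, that of 1810037I17Rik 137 bases after it, and that of Esrp1 64 bases after it. Syap1 also holds ACTATC without the seventh base at 226 and 603 bases after the stop codon. Rab15 holds this shorter form too, in the coding sequence and the 3′ UTR, and Esrp1 in the coding sequence. Among 12125 coding transcripts of the genes tested, 5.1% hold ACTATCA and 1.26% hold TACTATCA in the 3′ UTR, and 11.7% and 2.63% hold them anywhere. Long 3′ UTRs hold more matches by length alone. Among 3′ UTRs within 1.25 times the length of that of Syap1 (827 bases), itself included, 0.888% hold TACTATCA, and of those near that of 1810037I17Rik (705 bases), 0.579%. Of 3′ UTRs near the length of that of Lrrc34, at 432 bases the shortest of the 6, 1.16% hold ACTATCA, and of those near that of Grin1 (1187 bases), 3.4%. Near that of Esrp1 (1471 bases) 4.75% hold it, and of coding sequences near that of Rab15 (636 bases), 2.28%.

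Transcripts other than these with TACTATCA in the 3′ UTR numbered 151. Their median log2 fold change in input was -0.14 and 25.2% of them fell past the threshold, where 6.21% of all coding transcripts did and the median was 0.00. For the 615 others with ACTATCA, which include these 151, the values were -0.12 and 21.6%. In coding sequence, 164 others held TACTATCA, with a median of -0.08 and 10.4% lower. The reverse complements TGATAGT and TGATAGTA in the 3′ UTR went with a median of -0.02 and with 7.6% and 5.26% lower, and none of the 6 transcripts holds either. None of these shares is matched for length, and all are from the fit without the replicate block. With the block 19% of all genes tested were lower in input, and the shares for the motif were not computed with it. As the motif was found in genes that fell in this same input comparison, the shares describe it and do not test it. Of 1679 mature mouse miRNAs in RefSeq, 0 have UGAUAGU, which pairs with ACTATCA, as bases 2 to 8. Only this placement was looked up, and pairing of the motif with miRNAs at other positions was not tested. The sequence of the RAM siRNA is not given in the sources used here, and its relation to the motif was not tested.

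**Figure D1:**
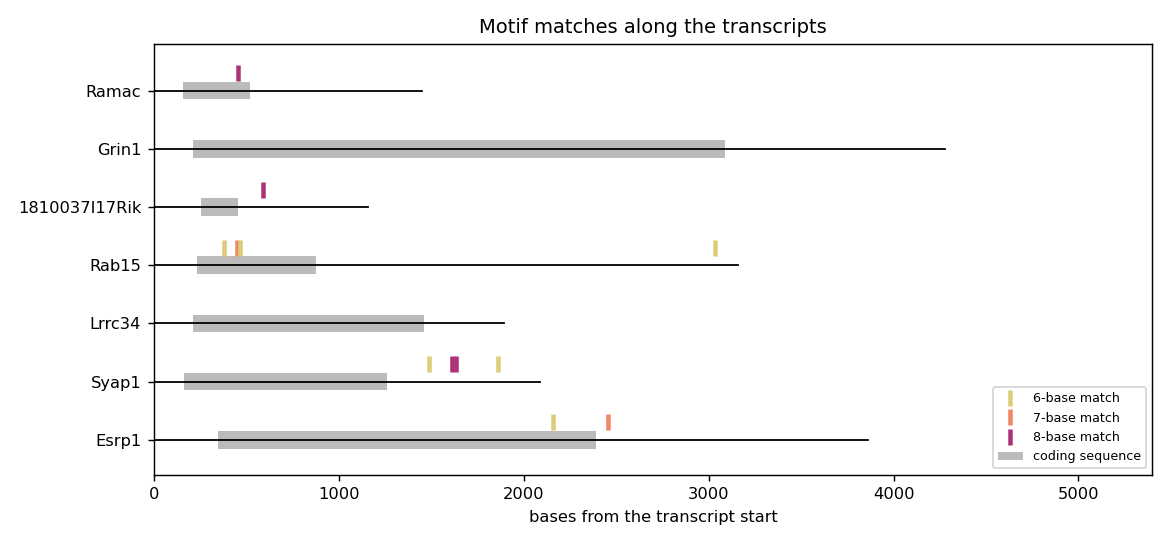
Matches to ACTATC (6 bases), ACTATCA (7 bases) and TACTATCA (8 bases) along the transcripts of Ramac and of the 6 genes, in bases from the transcript start, with the coding sequence as a grey bar. The 8-base matches of 1810037I17Rik and Syap1 lie after the coding sequence and that of Ramac within it, and Grin1 and Lrrc34 have no match.

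In control input the 6 transcripts spanned a wide range of levels, given here as CPM per kb of annotated exon (mean ± SD, n = 4 libraries). 1810037I17Rik was the most abundant (31.7 ± 3.02), then Lrrc34 (18.7 ± 2.91), Syap1 (11.7 ± 1.34), Rab15 (3.44 ± 0.263), Grin1 (1.52 ± 0.171) and Esrp1 (1.0 ± 0.141). No neighbours in this order overlapped between libraries. These levels stood between percentile 13.4 (Esrp1) and percentile 87.3 (1810037I17Rik) of the genes tested. In polysomes of control cells the order was another, with Lrrc34 first (41.6 ± 5.51), then Syap1 (15.4 ± 1.45), 1810037I17Rik (7.21 ± 1.37), Grin1 (1.35 ± 0.245), Esrp1 (1.12 ± 0.0861) and Rab15 (0.717 ± 0.139). There Grin1 and Esrp1 overlapped. The annotated exons together are longer than the transcript examined for Grin1 (9700 against 4276 bases) and Esrp1 (6305 against 3864). They are longer by less for Rab15 and Syap1, and equal to it for 1810037I17Rik and Lrrc34. Levels per kb, their order and their overlaps thus depend on the length used. In RAM siRNA input, the order of control input was kept, with overlaps of Lrrc34 and Syap1 and of Grin1 and Esrp1. Below, CPM are on one TMM scaling over the 16 libraries, and log2 fold changes are from edgeR fits on the 8 libraries of a comparison.

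Grin1 (ENSMUSG00000026959; GRCm38 chr2:25291181-25319187, minus strand, 21 exons) had 16.5, 15.8, 13.4 and 13.2 CPM in control input (replicates 1 to 4) and 6.39, 4.64, 6.55 and 3.79 CPM in RAM siRNA input. The groups were far apart, and RAM siRNA libraries were at 28.7% to 48.8% of their same-numbered controls. The log2 fold change in input, on which it was picked, was -1.46 (SE 0.16). In polysomes it had 10.8, 14.9, 15.5 and 11.4 CPM in control and 5.37, 3.21, 8.31 and 4.21 CPM with RAM siRNA. The groups did not overlap, although RAM siRNA replicate 3 lay closer to the controls than the others. The log2 fold change in polysomes was -1.25 (SE 0.31), and edgeR gave an adjusted p of 0.203, or 0.000342 with the replicate block. Grin1os, an antisense gene that was below the filter, overlaps 7706 bases of it.

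Of the other subunits of ionotropic glutamate receptors, 8 of 17 passed the filter, and in input 0 were lower and 0 higher at an adjusted p under 0.05 (edgeR; 2 and 2 with the replicate block), where 5.94% of all genes tested were lower and 6.95% higher (19% and 20.3% with the block). Their log2 fold changes in input ran from -0.65 to 0.66 with a median of 0.13. Grin2a (0.44, adjusted p = 0.19) and Grin2c (-0.65, adjusted p = 0.208), which encode partners of the Grin1 protein in NMDA receptors, lay at 2.66 and 3.67 CPM in control input. Grid1 (0.66, adjusted p = 0.0556) and Grik5 (0.34, adjusted p = 0.288) had the other small p-values.

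1810037I17Rik (ENSMUSG00000054091; GRCm38 chr3:122924203-122926184, plus strand) has 2 exons and a coding sequence of 65 codons, shorter than nearly all others (percentile 0.272 of the transcripts examined). It had 33.6, 34.1, 38.6 and 40.8 CPM in control input and 11.1, 13.9, 16.2 and 13.9 CPM in RAM siRNA input. Every RAM siRNA library was at 33% to 42% of its control, and the log2 fold change, on which it was picked, was -1.42 (SE 0.11). In polysomes it had 7.9, 6.73, 8.29 and 10.5 CPM in control and 2.35, 3.27, 3.35 and 4.63 CPM with RAM siRNA. These groups did not overlap either. The log2 fold change in polysomes was -1.25 (SE 0.25, adjusted p = 0.0936 in edgeR, or 0.000108 with the replicate block).

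Rab15 (ENSMUSG00000021062; GRCm38 chr12:76797960-76822908, minus strand, 7 exons) had 14.7, 17.4, 15.2 and 16.1 CPM in control input and 5.68, 5.22, 7.78 and 6.28 CPM in RAM siRNA input. RAM siRNA libraries were at 29.9% to 51.3% of their controls, and the log2 fold change, on which it was picked, was -1.34 (SE 0.13). In polysomes it was the scarcest of the 6, with 51, 80, 56 and 54 counts in control and 23, 21, 39 and 18 counts with RAM siRNA. The highest RAM siRNA library (1.95 CPM) stayed below the lowest control (2.76 CPM). The log2 fold change in polysomes was -1.17 (SE 0.27, adjusted p = 0.155 in edgeR, or 0.00234 with the replicate block). The gene lies wholly within Fntb, on the opposite strand, which did not change in input (log2 fold change 0.09, SE 0.08, adjusted p = 0.476). The libraries keep the strand, but the strand setting of the counting is not given in the sources used here, and whether Fntb reads enter the Rab15 counts was not tested.

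Thus Grin1, 1810037I17Rik and Rab15, tested in the fraction that did not pick them, passed the threshold in polysomes in 0 of 3 cases without the block and in 3 of 3 with it. Both fractions come from the same cultures, so these tests share the cells of the choice. A pass in them is no independent evidence of a fall. Without the block 0.0234% of all genes tested were lower in polysomes, and with it 4.97%.

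Of the other Rab GTPases, which route vesicles between membranes, 42 of 57 passed the filter, and 9 were lower and 2 higher in input (edgeR, adjusted p under 0.05; 16 and 3 with the replicate block), against 5.94% lower and 6.95% higher over all genes (19% and 20.3% with the block). Their median log2 fold change was -0.11, against 0.00 over all genes tested. Rab23 (-0.45, adjusted p = 0.00545), Rab8b (-0.40, adjusted p = 0.00832) and Rab22a (-0.29, adjusted p = 0.0128) fell, and Rab4a rose (0.38, adjusted p = 0.0151). In size each of these was under the fall of Rab15. The largest value of the family, named after it was seen, was that of Rab3b, at 1.10 in input (adjusted p = 0.000779 with the block) and 1.33 in polysomes (adjusted p = 0.0936, or 0.000286 with the block).

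Lrrc34 (ENSMUSG00000027702; GRCm38 chr3:30624267-30647869, minus strand, 11 exons) was picked in both fractions. It had 39, 38.7, 27.3 and 36.4 CPM in control input and 15.3, 16.2, 12 and 14.1 CPM in RAM siRNA input. In polysomes it had 89.2, 85.4, 66.8 and 73.3 CPM in control and 32.7, 30.7, 23.8 and 26.4 CPM with RAM siRNA. Control levels differed between replicates, with replicate 3 the lowest in both fractions, and RAM siRNA levels followed them. Within same-numbered pairs RAM siRNA polysomes were at 36.6%, 35.9%, 35.7% and 36% of control, a spread of 0.408 percentage points (SD, n = 4 pairs). In input they were at 39.2%, 41.8%, 44.1% and 38.7%. The log2 fold changes were -1.30 (SE 0.13) in input and -1.42 (SE 0.16) in polysomes.

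Npm1 and Ncl, which encode nucleophosmin and nucleolin, nucleolar proteins reported to bind the Lrrc34 protein, had log2 fold changes in input of -0.15 (adjusted p = 0.362, edgeR; 0.0112 with the block) and 0.01 (adjusted p = 0.977). Lrriq4 overlaps 3363 bases of Lrrc34 on the opposite strand, and it fell in input as well (-0.72, SE 0.14, adjusted p = 0.00586). In polysomes its log2 fold change was -0.75 (SE 0.19, adjusted p = 0.203, or 0.00537 with the block). Whether reads are shared between both genes was not tested.

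Syap1 (ENSMUSG00000031357; GRCm38 chrX:162857057-162888447, minus strand, 9 exons) differed between fractions more than the others. It had 29.5, 30.6, 23.7 and 26.2 CPM in control input and 16.1, 17.5, 15.7 and 13.2 CPM in RAM siRNA input. RAM siRNA input was thus at 50.5% to 66.5% of control, and every library lay below every control. The log2 fold change in input, which did not pick it, was -0.82 (SE 0.11, adjusted p = 0.000619 in edgeR). In polysomes it had 41.1, 36.4, 33.6 and 34.1 CPM in control and 8.38, 6.25, 9.21 and 10.3 CPM with RAM siRNA. There RAM siRNA libraries were at 17.1% to 30.1% of control, and the log2 fold change, on which it was picked, was -2.03 (SE 0.19). Mir3473a, annotated within the gene on the same strand, was below the filter.

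Of 16 other genes of mTORC2 and Akt signalling, all tested, Akt1 (-0.52, adjusted p = 0.00505) and Foxo3 (-0.31, adjusted p = 0.0138), which encode the kinase and one of its substrates, were lower in input and 0 were higher (edgeR). The replicate block gave 5 lower and 3 higher. Over all genes 5.94% were lower and 6.95% higher, and 19% and 20.3% with the block. Prr5 (0.49, adjusted p = 0.0893) and Phlpp1 (0.26, adjusted p = 0.0981) were not past the threshold, and the median of the 16 was 0.00.

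Esrp1 (ENSMUSG00000040728; GRCm38 chr4:11331933-11386783, minus strand, 16 exons) was scarce in both fractions. It had 6.93, 5.67, 5.42 and 7.2 CPM in control input and 2.13, 1.51, 1.66 and 2.55 CPM in RAM siRNA input, the latter from 39, 26, 31 and 45 counts. The groups were well apart, and the log2 fold change in input, which did not pick it, was -1.68 (SE 0.18, adjusted p = 0.000213 in edgeR). In polysomes it had 7.15, 6.36, 7.11 and 7.68 CPM in control and 1.87, 2.52, 2.05 and 2.19 CPM with RAM siRNA. The log2 fold change there, on which it was picked, was -1.66 (SE 0.18). The mean of the pairs was 30.8% of control in each fraction. Gm26663, a non-coding gene below the filter, overlaps it on the opposite strand. Syap1 and Esrp1, tested in the fraction that did not pick them, thus both passed the threshold in input, where 5.94% of genes were lower. These tests too share the cells of the choice, as both fractions come from the same cultures. Their passes are no independent evidence of a fall either.

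Of 16 other splicing regulators tested, Rbm47 (-0.80, adjusted p = 0.000492), Ptbp3 (-0.50, adjusted p = 0.00114) and Mbnl3 (-0.44, adjusted p = 0.0441) were lower in input and 0 were higher (edgeR; 5 and 1 with the replicate block), against the same shares over all genes, with a median of -0.11. Esrp2, the paralog with which Esrp1 shares its targets, had a log2 fold change of -0.31 (SE 0.16, adjusted p = 0.223). Among 11 transcripts known to be spliced by Esrp proteins, Lsr alone fell in input (-0.46, adjusted p = 0.00604; 4 lower and 1 higher with the block) and the median was -0.01. These are gene totals and do not measure which isoforms were made. In polysomes no gene of any list above passed the threshold without the block. With it, the lower and higher genes numbered 0 and 2 among glutamate receptor subunits, 1 and 4 among Rab GTPases, 3 and 0 among splicing regulators, 1 and 0 among Esrp targets, and 1 and 1 in mTORC2 and Akt signalling, where 4.97% of all genes tested were lower and 9.68% higher. Over all genes there, without the block, 3 passed in edgeR's fit, 300 in DESeq2, and 1152 (9% of genes) were under 0.05 before adjustment.

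**Figure D2:**
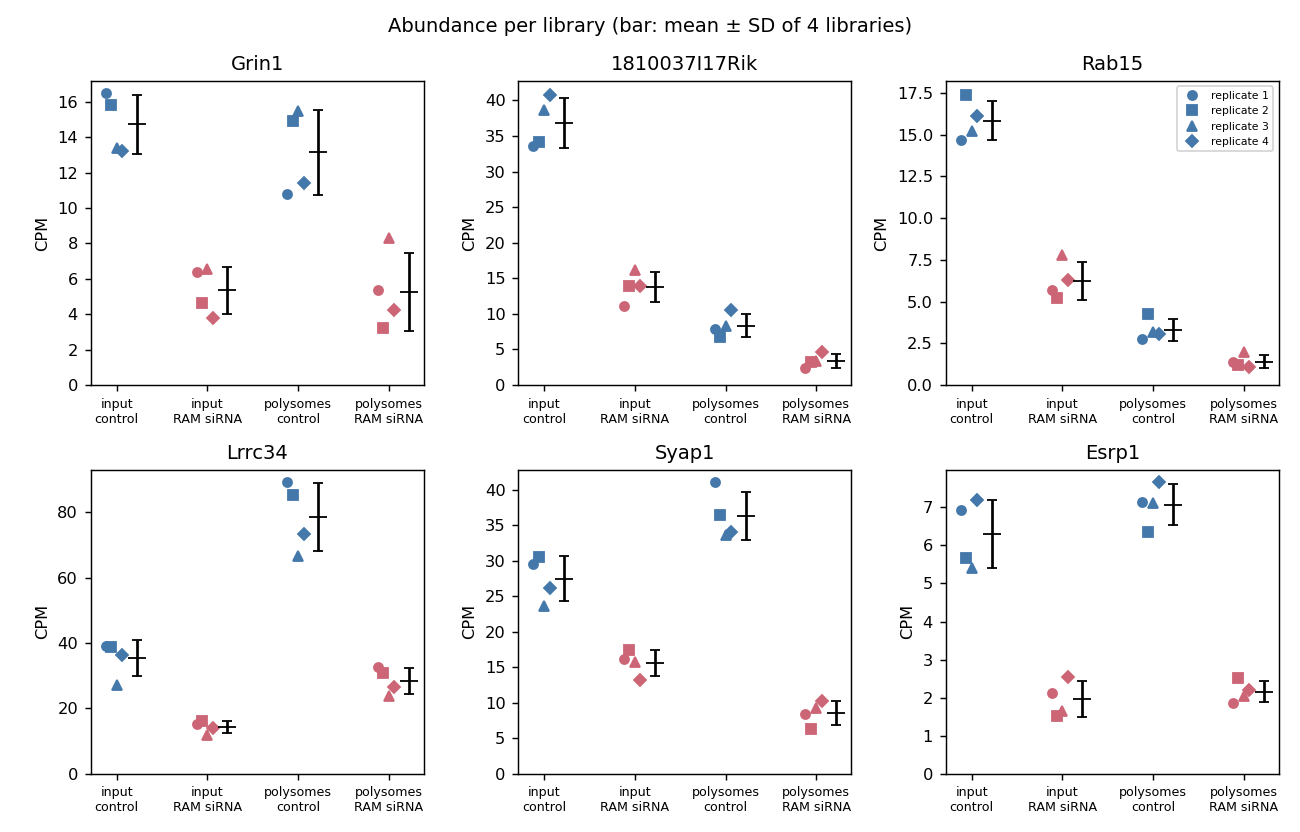
CPM in each of the 16 libraries for the 6 transcripts, with replicates as symbols, control in blue, RAM siRNA in red and the mean ± SD of 4 libraries as a black bar. In each panel the RAM siRNA libraries all lie below the control libraries of their fraction, which was so in both fractions for 2.27% of the genes tested.

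RAM siRNA libraries all lay below all control libraries for 6 of 6 transcripts in input and for 6 of 6 in polysomes. Over all genes tested this was so for 8.62% in input and 4.38% in polysomes. Since the genes were picked for their falls, nothing further is read from these counts. The within-pair levels showed how evenly the falls were repeated. They were most even for Lrrc34 in polysomes and least even for Rab15 (28.4% to 61.8% of control) and Grin1 (21.6% to 53.8%) in polysomes, in each case lowest in pair 2 and highest in pair 3. In RAM siRNA polysomes Lrrc34 had 445 to 542 counts, Grin1 56 to 166 and Rab15 18 to 39. How far counting noise set this order was not tested. For comparison, the median coefficient of variation of a gene over the 4 libraries was 9.1% in control input, 10.8% in RAM siRNA input, 19.2% in control polysomes and 27.7% in RAM siRNA polysomes.

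**Figure D3:**
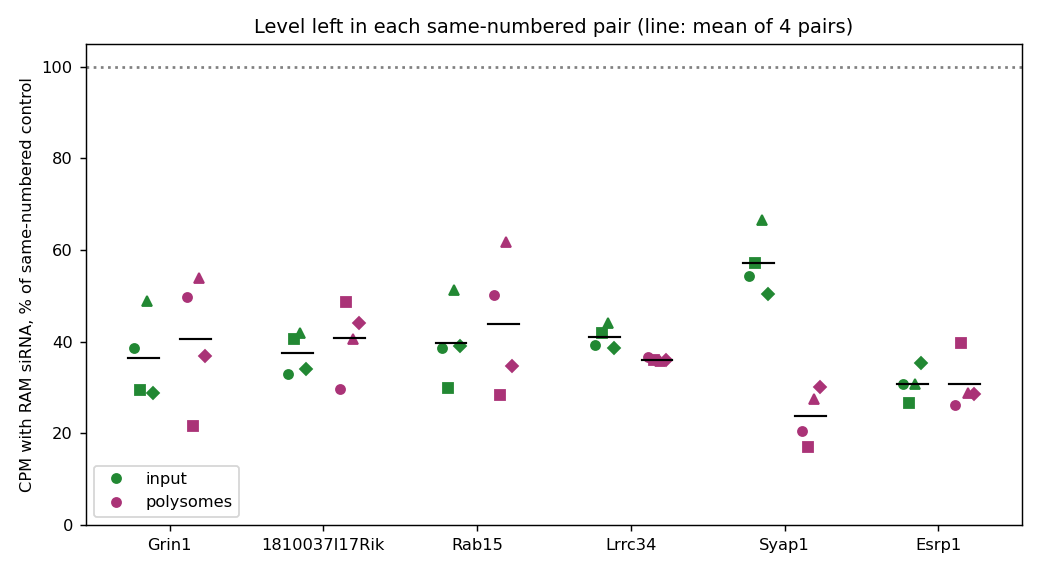
CPM with RAM siRNA as a percentage of the same-numbered control library, for input (green) and polysomes (purple), with replicates as symbols and the mean of 4 pairs as a line. Syap1 stands at 50.5% to 66.5% in input and 17.1% to 30.1% in polysomes, while the other 5 transcripts have overlapping or neighbouring values in both fractions.

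Polysome loading in control cells was low for Rab15 and 1810037I17Rik, high for Lrrc34 and near the middle of the range for the other 3. The ratio of CPM in polysomes to CPM in input had a median over all genes tested of 1.02. In control replicates 1 to 4 the ratio of Rab15 was 0.188, 0.243, 0.208 and 0.191, and that of 1810037I17Rik was 0.235, 0.197, 0.215 and 0.258. These means stood at percentiles 2.71 and 3.21 of the genes tested. That of Lrrc34 was 2.29, 2.21, 2.45 and 2.02, at percentile 93. Syap1 (1.39, 1.19, 1.42 and 1.3), Esrp1 (1.03, 1.12, 1.31 and 1.07) and Grin1 (0.653, 0.942, 1.15 and 0.864) lay near the middle, at percentiles 64.8, 55.6 and 42.9.

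In control cells the polysome level was below input for Rab15 (log2 difference -2.29, SE 0.16, adjusted p = 6.5e-07) and 1810037I17Rik (-2.17, SE 0.15, adjusted p = 6.57e-07). It was above input for Lrrc34 (1.12, SE 0.14, adjusted p = 4e-05) and by less for Syap1 (0.36, SE 0.12, adjusted p = 0.018). The Syap1 difference missed the threshold in 4 of 14 other analyses, with an adjusted p of up to 0.0618. Grin1 (-0.20, SE 0.16, adjusted p = 0.279) and Esrp1 (0.13, SE 0.15, adjusted p = 0.452) were not past it. Thus 2 of 6 were lower and 2 of 6 higher in polysomes, where 34.3% and 33.1% of all genes tested were (edgeR). These tests use control libraries that also entered the choice, where a high control level in the fraction that picked a gene favoured it, so they are not independent of it.

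In RAM siRNA cells the values that picked the genes enter the ratio itself, so it is described with no p. The log2 difference between polysomes and input was -2.12 for Rab15 (SE 0.25), -2.00 for 1810037I17Rik (SE 0.23) and 0.98 for Lrrc34 (SE 0.16). That of Syap1 was -0.86 (SE 0.19). Its ratio was 0.522, 0.358, 0.586 and 0.775, at percentile 20. For Grin1 (0.01, SE 0.32) and Esrp1 (0.15, SE 0.23) the difference was smaller than its SE, and the sign of the Grin1 value changed in 6 of 14 other analyses. In RAM siRNA cells 25.9% of all genes tested were lower and 27.3% higher in polysomes (edgeR).

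The change of polysome loading, the log2 fold change in polysomes less that in input, is built from the comparisons that picked the genes and is given with no test. It was -1.27 for Syap1 (SE 0.21), the third lowest of the 12805 genes. For the other 5 it was small against its error, at 0.15 for Grin1 (SE 0.35), 0.12 for 1810037I17Rik (SE 0.26), 0.12 for Rab15 (SE 0.28), -0.18 for Lrrc34 (SE 0.21) and -0.03 for Esrp1 (SE 0.25). The ratio of Syap1 was lower with RAM siRNA in every replicate than in any control replicate, which was so for 1.6% of the genes tested. That of Lrrc34 was lower in 4 of 4 same-numbered pairs, by 0.10 to 0.31 on the log2 scale, as was so for 10% of genes, and its groups overlapped. For Grin1 the ratio was higher in 3 of 4 pairs, for 1810037I17Rik and Rab15 in 2 of 4, and for Esrp1 in 1 of 4. Ramac, which holds TACTATCA in its coding sequence, had a change of loading of -0.74 (SE 0.53), nineteenth from the lowest. 1810037I17Rik, which holds it in the 3′ UTR as Syap1 does, had the value of 0.12 given above. Whether the motif bears on loading was not tested.

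**Figure D4:**
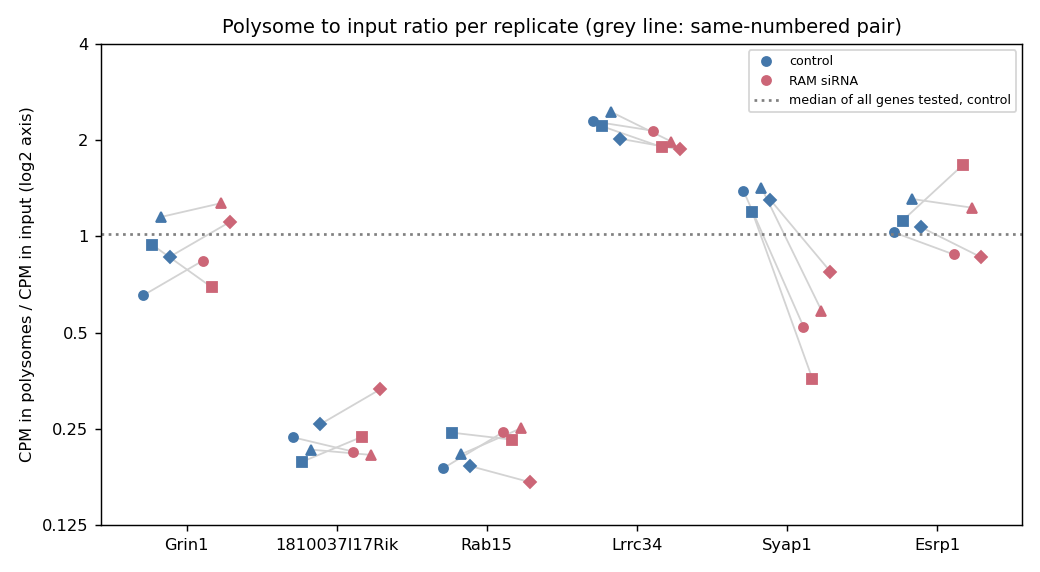
Ratio of CPM in polysomes to CPM in input per replicate (log2 axis), with control in blue, RAM siRNA in red, same-numbered pairs joined by grey lines and the median of all genes tested in control cells, 1.02, as a dotted line. Rab15 and 1810037I17Rik lie near 0.2 and Lrrc34 near 2 in both groups, and only the ratios of Syap1 separate the groups.

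In input the choice was limited to genes past the threshold that averaged 10 CPM or more and were lower in all 4 pairs, and Grin1, at a mean of 10 CPM, lay at that limit. Just outside in size were Ccne1 (-1.16), which encodes cyclin E, Coq3 (-1.16), Hus1 (-1.14) and Nell2 (-1.14), against -1.30 for Lrrc34. Of 13 genes that fell by at least as much as Lrrc34, 9 had a mean under 10 CPM, among them Ramac, Esrp1, Abo (-1.74), Hesx1 (-1.62) and Tspan1 (-1.55). In polysomes Chil1 (-1.47), Cep55 (-1.41), Cldn7 (-1.36) and Ccne1 (-1.29) were as low as Lrrc34 or nearly so and were not past the threshold without the block. With the block the adjusted p was 4.88e-06 for Chil1, 3.57e-06 for Cep55, 2.59e-05 for Cldn7 and 2.36e-05 for Ccne1 (edgeR). Ccne1 had far more reads than the 6 transcripts, at 294, 325, 352 and 313 CPM in control input and 124, 133, 170 and 148 CPM in RAM siRNA input. Its loading was high in control cells (1.31, SE 0.13), as that of Lrrc34 was. Cep55 had a change of loading of -1.05 (SE 0.25), near that of Syap1, with a smaller fall in input (-0.41). That change had an adjusted p of 1, or 0.00217 with the block within each fraction (edgeR).

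The 12 genes next to these 6 on the chromosome, counting genes tested, were lower in input in 4 cases and higher in 0 (edgeR, adjusted p under 0.05), where 5.94% of all genes tested were lower, or 19% with the block. They were Lrriq4 beside Lrrc34, Gpx2 beside Rab15 (-0.65, SE 0.16, adjusted p = 0.0195), Pde5a beside 1810037I17Rik (-0.59, SE 0.12, adjusted p = 0.00878) and Ctps2 beside Syap1 (-0.36, SE 0.11, adjusted p = 0.0412). Gpx2 lies 2406 bases from Rab15 on the same strand, while Pde5a lies 64829 bases and Ctps2 12791 bases away. Neither neighbour of Grin1 (Anapc2 and Man1b1) or of Esrp1 (Dpy19l4 and Virma) passed the threshold without the block, which added Man1b1 (-0.14, adjusted p = 0.0154 with it). In polysomes 0 of the 12 did without the block, and with it Lrriq4, Ctps2 (-0.45, adjusted p = 0.0124) and Usp53 (-0.37, adjusted p = 0.043) were lower.

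Over the 16 libraries the transcripts followed different patterns. Log2 CPM of 1810037I17Rik and Rab15 had a Pearson r of 0.964, while Rab15 and Lrrc34 had an r of -0.139. Syap1 and Esrp1 (0.834) and Grin1 and Esrp1 (0.841) lay between. The 16 points share cultures and fractions, so r describes these libraries only. The genes most like each were B4galnt2 (0.933) and Tmem129 (0.923) for Grin1, Fam84b (0.98) and Ccdc117 (0.979) for 1810037I17Rik, and Ptbp3 (0.972) and Fam84b (0.972) for Rab15. For Lrrc34 they were Nt5dc1 (0.971) and Coq3 (0.971), for Syap1 Rnf6 (0.954) and Kat2b (0.94), and for Esrp1 Prps2 (0.953) and Nkap (0.944). These genes were found by their likeness to transcripts picked for falling in the same libraries. Their falls, from -0.28 for Tmem129 to -1.33 for B4galnt2 in input, are therefore a description. Rnf6, an E3 ubiquitin ligase and the gene most like Syap1, had log2 fold changes of -0.66 in input and -0.99 in polysomes.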

How the data were processed

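The authors removed ribosomal RNA, made stranded libraries, mapped reads to GRCm38 with STAR 2.5.1b and counted them per gene with htseq-count. They deposited raw counts per gene for the 16 libraries, and 0 columns belonged to other samples. The htseq-count settings and annotation release are not given in the sources used here. The paper's methods and the labels describe the transfection differently (amount of siRNA, cell number, reagent).

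The 6 genes, the gene lists, the motif and the rule for named genes were chosen with earlier results of these data known. Named are the 6 genes, Ramac and Rnmt, the next genes in order of fall, the 2 genes most like each, the nearest tested gene on each side, and up to 4 genes per list with the smallest p in input. Esrp2, Rab3b, Cep55, the further genes of the runs beside the choice and the marker Gata6 were named after their values were seen.

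Of 46983 gene IDs, 46488 matched a symbol in GENCODE M21. Groups were compared by edgeR's quasi-likelihood test (edgeR 4.0.16, R 4.3.3) with TMM scaling and Benjamini-Hochberg adjustment over 12805 genes (threshold 0.05). The fits without the block were also run on simulated counts. Those counts hold no replicate effect, so that run does not cover the blocked fits or the pairing of these libraries. CPM per kb used the union of annotated exons. Sequence matches used 1 coding transcript per gene.

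Same-numbered libraries deviated together from their group means (mean Pearson r over genes of 0.499 in input and 0.777 in polysomes, lowest pair 0.315 and 0.541), so numbers pair the samples and the replicate block is given where it changes a call. Depth of 16647523 to 20147833 counts per library leaves Rab15 in RAM siRNA polysomes with 18 to 39 counts. Alternatives were RLE and library-size scaling, no filter, DESeq2 1.42.0, limma-voom (limma 3.58.1), the block, single pairs and each library left out.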

Additional observations from a re-analysis of the deposited data

How the results depend on the processing

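Every log2 fold change of the 6 transcripts in input and in polysomes kept its sign under the 14 alternatives run for each, and the polysome falls kept it in every pair alone and in replicates 1 and 2 and replicates 3 and 4. In polysomes Grin1, 1810037I17Rik and Rab15 passed the threshold with DESeq2 (adjusted p of 0.00524, 0.000345 and 0.00486) and with the replicate block, and in no other alternative. Over the alternatives their adjusted p ran from 0.000342 to 0.527, from 0.000108 to 0.327 and from 0.00234 to 0.457. The block changed no other call of the 6 transcripts. Leaving out libraries moved no test of Syap1 or Esrp1 in input across it. The Syap1 difference between polysomes and input in control cells lost its call with library size alone and without input control replicate 3 or 4 or polysome control replicate 1 (adjusted p between 0.0518 and 0.0618). The near-zero difference of Grin1 in RAM siRNA cells changed sign with library size alone (-0.11), limma-voom (-0.06) and the replicate block (-0.05), and without input RAM siRNA replicate 2 (-0.05) or 4 (-0.12) or polysome RAM siRNA replicate 3 (-0.35). Leaving out single libraries gave -0.35 to 0.16. The cause was not tested.

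The number of genes called in input was 1651, and 5028 with the replicate block, with 913 to 2506 when single libraries were left out. The blocked fit, with 2433 lower and 2595 higher, lies nearer the paper's counts than the fit without it (761 and 890). In polysomes the number called was 3, and 39 with no filter, 300 with DESeq2, 1875 with the replicate block and 0 to 48 without single libraries. For the change of loading it was 0 (100 genes at an unadjusted p under 0.05), 1 with DESeq2 and 2 with the replicate block within each fraction. The paper reports more genes with changed loading than any of these fits called. Depth limits Rab15 in RAM siRNA polysomes, at 18 to 39 counts, and Esrp1 in RAM siRNA input, at 26 to 45.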
